A study of Mus musculus with 12 samples.

Results

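The genes described here carry the signal of tumour necrosis factor (TNF) to the transcription factor NF-kB, and were followed in cultured mouse fibroblast-like synoviocytes, the connective tissue cells that line joints. They were taken from the deposited read-count table by gene symbol, from a list of 43 genes, and all 43 were found among its 36875 symbols and passed the filter on low counts. The list holds 11 genes of the ligand, its receptors and their adaptors, 11 kinases, 5 NF-kB subunits, 11 IkB proteins and feedback inhibitors, and 5 effector genes that TNF is known to induce. The genes were listed by their known roles in the pathway, with earlier results of these data known.

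Poly(A) RNA was sequenced in 12 libraries, with 4 in each of 3 groups. Homeostasis libraries came from animals that drank 5% sucrose water for 3 weeks and are called WT in the sample descriptions. Inflammation libraries came from animals given 1 mg/ml doxycycline with 5% sucrose for the same 3 weeks (DOX ON), and resolution libraries from animals whose identical course was then stopped (DOX OFF). The extraction protocol, which is worded alike for every sample, names synovial fibroblasts of mice with arthritis induced by TNF, and all cells were cultured before RNA was taken. The genotype of each group, the promoter behind any transgene, the species of the TNF sequence, and the sex, age, passage and interval after withdrawal were not stated in the labels. Since no label ties the libraries of a group to different animals or cultures, the p-values describe only how these samples scatter, and that scatter may be technical. The series states an interest in how synoviocytes act on endothelial cells in the resolution phase.

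TNF binds receptors on the cell surface, whose adaptors and ubiquitin ligases gather the kinase Ripk1 and the IkB kinase (IKK) complex. IKK marks IkB proteins for destruction, which frees NF-kB dimers to enter the nucleus. Many of the genes that NF-kB then switches on encode its own inhibitors and subunits, so their transcript levels are widely read as a record of pathway activity, and in synoviocytes the pathway drives cytokines, matrix proteases and acute-phase proteins.

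Several features of the libraries moved with the groups. Total counts ran from 18120745 to 34971537 per library. Summed fibroblast markers lay at 29810 to 32166 counts scaled to library size (CPM) in homeostasis, 22206 to 25716 in inflammation and 11466 to 17048 in resolution, and endothelial and lymphocyte markers summed to at most 16.7 and 0.227 CPM. Chondrocyte markers summed to 1030 to 1322 CPM in homeostasis, 200.3 to 279 in inflammation and 106 to 149 in resolution. Neutrophil markers lay at 12.3 to 31.9 CPM in homeostasis, 54.2 to 67.2 in inflammation and 54.6 to 69.4 in resolution, Schwann cell markers at 32.3 to 36.3, 11.1 to 14.7 and 19.6 to 23.8, and skeletal muscle markers at 38.4 to 44.5, 59.0 to 91.8 and 26.4 to 40.0. Some of these sums hide opposite moves. Of the 5 skeletal muscle markers tested, 1 was higher and 4 were lower in inflammation than in homeostasis. Of the 12 fibroblast markers, 2 were higher and 5 lower in inflammation, and 2 higher and 8 lower in resolution, against homeostasis. Of 6 Schwann cell markers tested, 1 was higher and 3 lower in resolution than in homeostasis, and of 4 endothelial markers 1 was higher and 2 lower. The 21 listed macrophage markers summed to 132 to 173 CPM in homeostasis, 744 to 823 in inflammation and 71.4 to 81.1 in resolution. Of the 18 that were tested, 18 were higher in inflammation than in homeostasis, 12 were lower in resolution than in homeostasis, and 17 were lower in resolution than in inflammation. The part of any of these markers in the results below was not tested. The Y-linked genes Eif2s3y, Kdm5d and Uty were at 0 in all doxycycline libraries and present in all homeostasis libraries, while Xist averaged 10.8 CPM in the homeostasis libraries, 110.3 in inflammation and 174 in resolution. Sex and doxycycline history therefore cannot be told apart in either comparison against homeostasis, and because these are bulk samples, fewer cells of a type and less RNA per cell cannot be told apart either. The homeostasis libraries also fell into pairs: libraries 3 and 4 both exceeded libraries 1 and 2 for 28 of the 43 genes, lay below them for 6, and overlapped with them for 9. Over all 15049 tested genes, 28.9% lay above and 29.6% below in this way. Where a call against homeostasis changed when 1 of these pairs served as the controls alone, that value is given beside it.

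Compared with homeostasis, the inflammation libraries had lower transcript levels of most NF-kB subunits and of the feedback inhibitors Nfkbia, Nfkbie, Tnfaip3 and Tnip1, and lower Tnf and Traf1. They had higher levels of the kinase Chuk, the deubiquitinase Cyld, the inhibitor of caspase activation Cflar, the receptor Tnfrsf1b and the effector Saa3. Of the 43 genes, 8 were higher (18.6%), 17 were lower (39.5%) and 18 did not pass at an edgeR adjusted p under 0.05. Among all tested genes 19.0% were higher and 18.3% lower (37.2% in either direction). All inflammation libraries lay above all homeostasis libraries for 7 of the 43 and below them for 14, which 18.1% and 17.3% of all genes did. The median log2 fold change was -0.22 for the 43 genes and -0.01 for all genes. A change of at least 2-fold was met by 1 gene upward (Saa3) and 5 downward (Tnf, Traf1, Nfkbie, Tnip1 and Tnfaip6), where 8.85% and 4.98% of all genes met it. Against homeostasis 1 and 2 alone, 11 genes were lower, and 10 of these were among the 17. In that fit Tnf, Traf1, Traf2, Rela, Relb, Bcl3 and Tnfaip2 did not pass, and 17.2% of all genes were lower. Against libraries 3 and 4 alone, the genes called lower included 16 of the 17, where 14.6% of all genes were lower.

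In resolution against homeostasis, 12 genes were higher (27.9%), 17 were lower (39.5%) and 14 did not pass. The background was wider here, at 27.5% of all tested genes higher and 25.8% lower (53.3% in either direction). The libraries of the groups were fully apart for 11 genes upward and 14 downward, against 21.9% and 21.6% of all genes. The median was -0.19 for the 43 genes and -0.01 for all genes. At least 2-fold changes were found upward in 6 (Chuk, Map3k7, Tnip3, Cyld, Cflar and Saa3) and downward in 7 (Tnf, Traf1, Nfkb2, Nfkbie, Tnip1, Tnfaip6 and Ptx3), against 15.2% and 8.25% of all genes. Both of these comparisons use the same 4 homeostasis libraries, so their values are given side by side and their overlap is not counted as a result.

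Between resolution and inflammation, which share no library, 5 genes were higher (Chuk, Map3k7, Tnip3, Cyld and Cflar), 5 were lower (Tnf, Traf1, Ripk3, Tnfaip6 and Ptx3) and 33 did not pass. Of all tested genes, 8.52% were higher and 7.64% lower (16.2% in either direction). The groups were fully apart for 4 genes upward and 6 downward, where 8.94% and 9.91% of all genes were. At least 2-fold changes were met by Tnip3 upward and by Tnf, Traf1 and Tnfaip6 downward, so 1 and 3 genes, against 2.11% and 3.24% of all genes. The median was 0.07 for the 43 genes and 0.02 for all genes. Of the 5 NF-kB subunits, 0 passed here in edgeR, DESeq2 or limma-voom, and 1 (Rel) had an unadjusted edgeR p below 0.05.

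**Figure D1:**
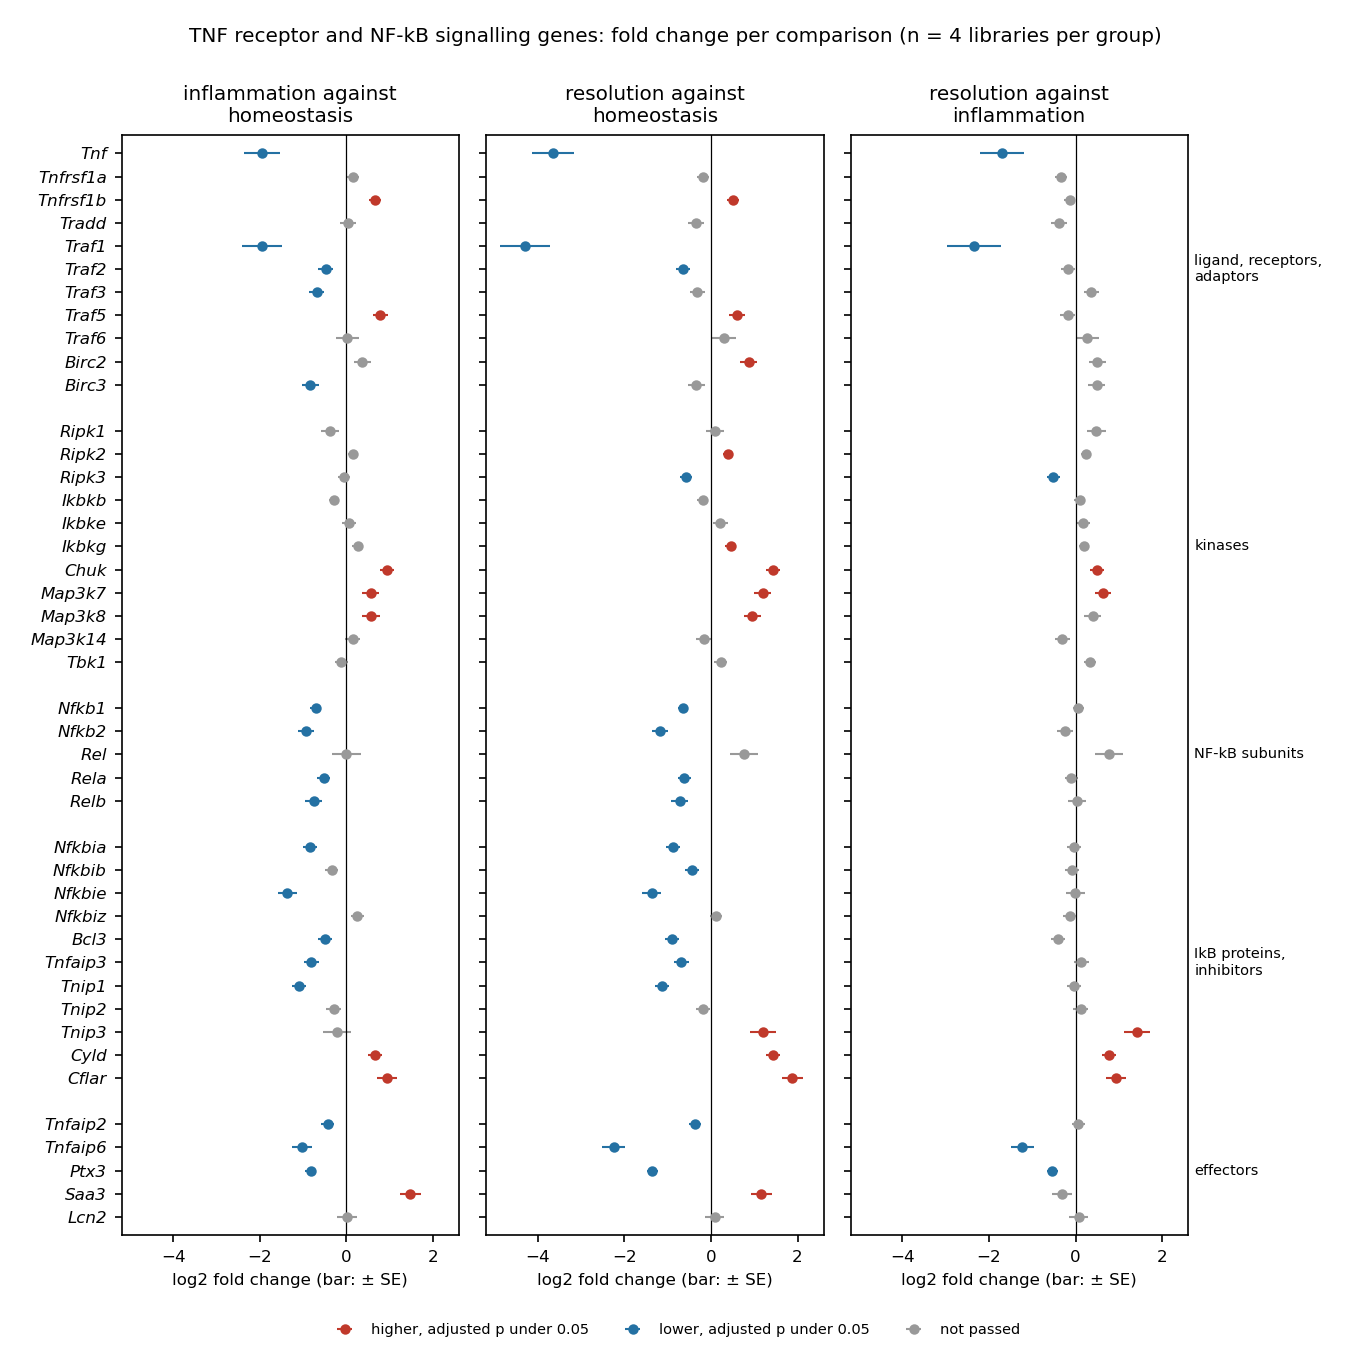
Log2 fold change (horizontal axis, bars ± SE) of each of the 43 genes in the 3 comparisons, ordered by role, with red and blue for genes that passed in edgeR and grey for those that did not. The subunits and inhibitors lie mostly left of 0 in both comparisons against homeostasis. Between resolution and inflammation 33 genes are grey, among them all 5 subunits, while the inhibitors Cyld, Cflar and Tnip3 lie right of 0 in red.

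Among the ligand, receptors and adaptors, 2 of 11 were higher and 5 lower in inflammation than in homeostasis, 3 were higher and 3 lower in resolution than in homeostasis, and 0 were higher and 2 lower in resolution than in inflammation (edgeR). DESeq2 and limma-voom also called 0 of these higher in the last comparison, and 3 (Traf3, Birc2 and Birc3) had an unadjusted edgeR p below 0.05. Of all genes, 19.0% were higher and 18.3% lower in the first comparison, 27.5% and 25.8% in the second, and 8.52% and 7.64% in the third. In this role the shares were 18.2% and 45.5%, 27.3% and 27.3%, and 0% and 18.2%, so those of the second lay near all genes. Tnf, the ligand (chr17:35199381-35202007 in GRCm38), was at 1.78, 2.46, 5.24 and 6.39 CPM in the homeostasis libraries, at 0.960, 0.573, 1.76 and 0.795 in those of inflammation and at 0.258, 0.467, 0.136 and 0.370 in those of resolution. The 3 groups did not overlap, and homeostasis libraries 3 and 4 were the highest of all. Its log2 fold change was -1.96 ± 0.41 (SE) in inflammation and -3.66 ± 0.48 in resolution against homeostasis (edgeR adjusted p = 0.000986 and 3.65e-06). Against inflammation, resolution was lower by -1.70 ± 0.52 on the log2 scale (edgeR adjusted p = 0.0308). The whole resolution group rested on 26 counts of Tnf, and a count of 0 in a library would allow up to 0.0923 to 0.171 CPM, so the resolution level is near what this depth can show. Against homeostasis 1 and 2 alone the inflammation value was -1.07 and did not pass (edgeR adjusted p = 0.0691). Between resolution and inflammation the call was lost without inflammation 1 (-1.73) or 3 (-1.32), or without resolution 1 (-1.64), 3 (-1.46) or 4 (-1.81), with edgeR adjusted p from 0.0576 to 0.108, and in limma-voom (-1.63, adjusted p = 0.119). Since the labels do not say which TNF sequence doxycycline switches on, the Tnf count is no check of them.

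Traf1, a receptor adaptor whose own gene is an NF-kB target, was at 1.68, 1.35, 6.21 and 6.39 CPM in the homeostasis libraries, at 0.548, 0.696, 1.27 and 1.46 in those of inflammation and at 0.258, 0.187, 0.0908 and 0.231 in those of resolution. All resolution libraries were below all others, and inflammation 4 lay above homeostasis 2. The fold changes were -1.96 ± 0.46, -4.31 ± 0.58 and -2.35 ± 0.62 (SE) for inflammation and resolution against homeostasis and resolution against inflammation, with edgeR adjusted p = 0.00250, 4.65e-06 and 0.0151. The resolution group held 16 counts in all. Against homeostasis 1 and 2 alone, the inflammation value was -0.60 (edgeR adjusted p = 0.350), and without resolution 3 the value against inflammation was -2.12 (adjusted p = 0.0612). In limma-voom that value was -2.21 and did not pass (adjusted p = 0.108).

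Of the receptors, Tnfrsf1a, which carries a death domain, passed in none of the comparisons with all 12 libraries and averaged 227 ± 26.1, 251 ± 18.6 and 199.97 ± 37.0 CPM (SD, n = 4) in homeostasis, inflammation and resolution. Its fold change was 0.14 ± 0.14 and -0.19 ± 0.14 (SE) against homeostasis, and -0.33 ± 0.14 in resolution against inflammation (edgeR adjusted p = 0.106). Without resolution 2, Tnfrsf1a was lower in resolution than in homeostasis (-0.33, edgeR adjusted p = 0.0308) and than in inflammation (-0.47, adjusted p = 0.00936). Tnfrsf1b, the receptor without a death domain, was at 76.4, 68.5, 92.9 and 99.6 CPM in the homeostasis libraries, at 119, 130.5, 141 and 139 in those of inflammation and at 107, 142, 120.3 and 112 in those of resolution. Every doxycycline library exceeded every homeostasis library. The rise was 0.65 ± 0.14 in inflammation and 0.52 ± 0.14 in resolution (edgeR adjusted p = 0.00104 and 0.00386), and against homeostasis 3 and 4 alone the resolution value was 0.33 and did not pass (adjusted p = 0.0526). Macrophages are known to carry Tnfrsf1b, and their summed markers lay at 744 to 823 CPM in inflammation and 71.4 to 81.1 in resolution; their part in the values of Tnfrsf1b was not tested.

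The remaining adaptors moved in different directions. Traf5, an adaptor of several TNF-family receptors, was at 6.90, 7.54, 9.91 and 9.83 CPM in the homeostasis libraries, at 17.0, 16.7, 13.4 and 11.6 in those of inflammation and at 15.4, 13.7, 11.7 and 10.9 in those of resolution, and its doxycycline libraries all exceeded the controls. It rose by 0.78 ± 0.18 in inflammation and 0.60 ± 0.18 in resolution (edgeR adjusted p = 0.00206 and 0.00876). The table lists Traf5 under 2 entries, which were summed; the entry with the higher control level gave 0.57 in resolution on its own and did not pass (adjusted p = 0.0635), and neither did the sum against homeostasis 3 and 4 alone (0.40, adjusted p = 0.102). Traf3, which restrains the kinase Map3k14, was at 40.9, 37.6, 31.2 and 29.1 CPM in the homeostasis libraries, at 15.5, 23.1, 20.6 and 26.8 in those of inflammation and at 26.4, 22.9, 29.2 and 32.5 in those of resolution, so that inflammation lay wholly below homeostasis. Its change was -0.69 ± 0.17 in inflammation (edgeR adjusted p = 0.00401; -0.46 and 0.0723 against homeostasis 3 and 4 alone) and -0.32 ± 0.17 in resolution (adjusted p = 0.123; -0.51 and 0.0355 against homeostasis 1 and 2 alone, which passed).

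Birc2 and Birc3 are closely related ubiquitin ligases of the receptor complex. Birc3 was at 31.3, 30.9, 38.2 and 28.7 CPM in the homeostasis libraries, at 15.5, 12.4, 17.5 and 27.1 in those of inflammation and at 24.997, 19.9, 28.6 and 28.5 in those of resolution. It fell by 0.83 on the log2 scale in inflammation (edgeR adjusted p = 0.00277), with no overlap between the groups, and was -0.34 ± 0.20 in resolution (adjusted p = 0.154). Birc2 was at 7.56, 6.22, 10.0 and 6.21 CPM in the homeostasis libraries, at 8.45, 8.31, 11.4 and 10.4 in those of inflammation and at 13.9, 9.53, 16.9 and 14.5 in those of resolution. Of the homeostasis libraries only library 3 reached the resolution range, as did inflammation 3 and 4. Its rise in resolution was 0.87 ± 0.20 (edgeR adjusted p = 0.00114), against 0.37 ± 0.20 in inflammation (adjusted p = 0.16). Traf2, which brings these ligases to the receptor, was lower in both comparisons (-0.48 ± 0.17 and -0.65 ± 0.17, edgeR adjusted p = 0.0287 and 0.00288). Neither call held against homeostasis 1 and 2 alone (-0.14 and -0.32, adjusted p = 0.532 and 0.107), and the inflammation call was also lost without homeostasis 3 (-0.45) or 4 (-0.29) or inflammation 2 or 4 (-0.43 each). Tradd, the adaptor of Tnfrsf1a, and Traf6, the ubiquitin ligase of interleukin-1 and Toll-like receptors, passed in none of the 3 comparisons with all 12 libraries. Tradd was lower in resolution against homeostasis 3 and 4 alone (-0.63, edgeR adjusted p = 0.00814) and without homeostasis 2 (-0.49, adjusted p = 0.0275). Traf6 was higher in resolution than in homeostasis without resolution 2 (0.54, edgeR adjusted p = 0.0455). Tradd averaged 22.5 ± 6.34, 23.0 ± 2.94 and 17.6 ± 3.51 CPM and Traf6 6.04 ± 0.905, 6.14 ± 1.69 and 7.43 ± 3.16 in homeostasis, inflammation and resolution.

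**Figure D2:**
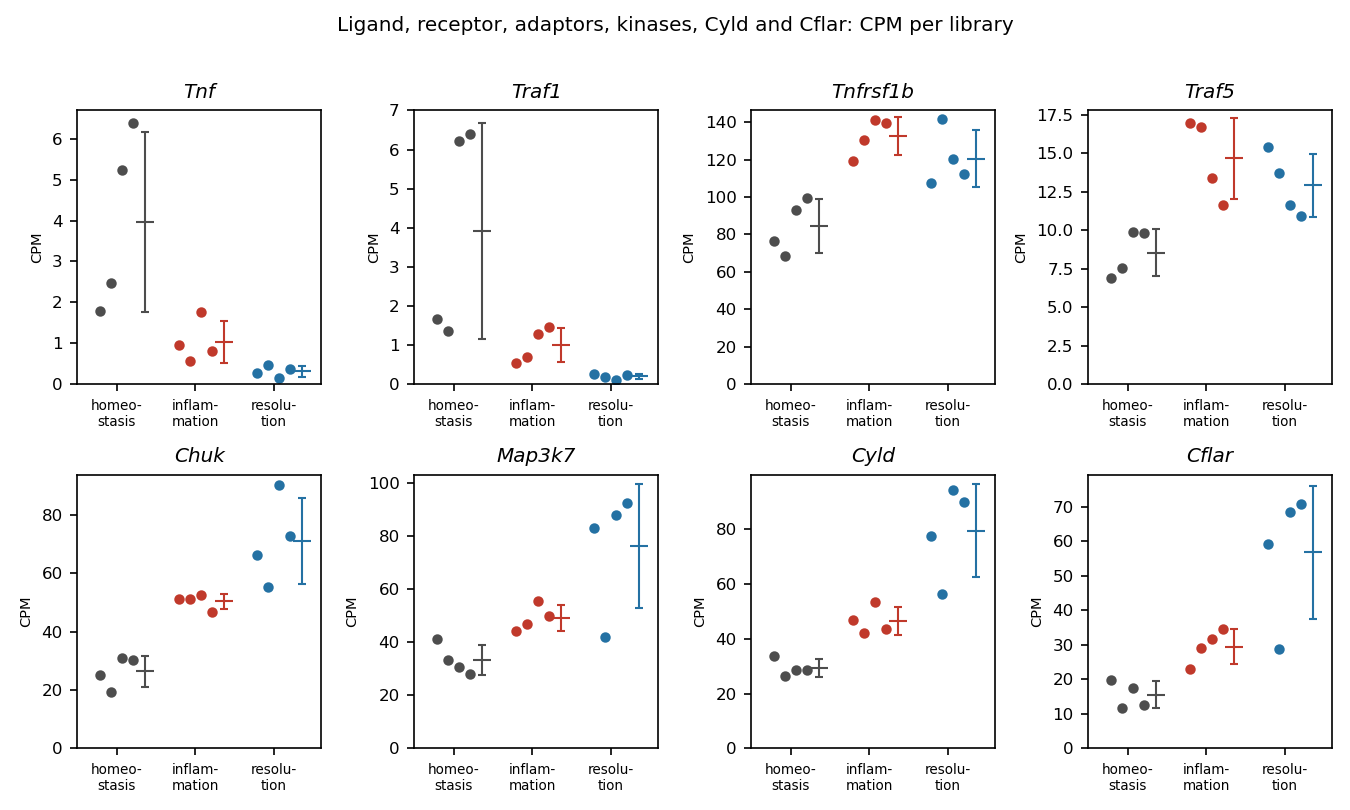
CPM (vertical axis, from 0) of 8 genes in each library, with points for libraries 1 to 4 of a group from left to right and a bar for mean ± SD. Tnf and Traf1 are highest in homeostasis 3 and 4 and near 0 in resolution, whereas Chuk, Map3k7, Cyld and Cflar have their highest mean in resolution, where library 2 is the lowest of the 4.

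Among the 11 kinases, 3 were higher and 0 lower in inflammation than in homeostasis in edgeR (0 lower in DESeq2 and limma-voom, 1, Ikbkb, at an unadjusted p below 0.05), 5 were higher and 1 lower in resolution than in homeostasis, and 2 were higher and 1 lower in resolution than in inflammation. The higher shares were 27.3%, 45.5% and 18.2% in this order, against 19.0%, 27.5% and 8.52% of all genes. The lower shares were 0%, 9.09% and 9.09%, against 18.3%, 25.8% and 7.64%. Chuk, the alpha catalytic subunit of IKK, was at 25.2, 19.4, 30.9 and 30.1 CPM in the homeostasis libraries, at 51.0, 51.3, 52.6 and 46.5 in those of inflammation and at 66.1, 55.2, 90.2 and 72.7 in those of resolution. Its 3 groups did not overlap. Chuk rose by 0.93 ± 0.17 in inflammation and 1.43 ± 0.17 in resolution (edgeR adjusted p = 0.000205 and 8.48e-07). The step between resolution and inflammation, 0.50 ± 0.16 (adjusted p = 0.0431), was lost without homeostasis 1, without any of the inflammation libraries, or without resolution 1, 3 or 4 (0.35 to 0.52, adjusted p up to 0.193), and in limma-voom (0.48, adjusted p = 0.0506).

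Map3k7, the kinase that activates IKK, was at 41.2, 33.1, 30.7 and 27.9 CPM in the homeostasis libraries, at 44.2, 46.7, 55.4 and 49.8 in those of inflammation and at 83.0, 41.7, 87.7 and 92.2 in those of resolution. Resolution 2 lay just below the inflammation libraries and the other resolution libraries far above them. Its fold changes were 0.56 ± 0.20, 1.20 ± 0.20 and 0.63 ± 0.19 for inflammation and resolution against homeostasis and resolution against inflammation (edgeR adjusted p = 0.0299, 4.7e-05 and 0.0321). The inflammation call was lost without homeostasis 3 or 4 or inflammation 3 or 4 (0.50 to 0.57), and against homeostasis 1 and 2 alone (0.40, adjusted p = 0.196). The call against inflammation was lost without inflammation 1, 2 or 4 or resolution 1, 3 or 4 (0.51 to 0.63), and in limma-voom (0.57, adjusted p = 0.0608). Map3k8, a kinase that leads from NF-kB signalling to the ERK kinases, was at 4.57, 4.00, 4.90 and 5.39 CPM in the homeostasis libraries, at 5.53, 5.08, 8.47 and 8.71 in those of inflammation and at 8.40, 7.66, 10.2 and 10.3 in those of resolution. It was higher by 0.56 ± 0.20 in inflammation and 0.96 ± 0.20 in resolution (edgeR adjusted p = 0.0359 and 0.000556), and the first of these was lost without homeostasis 1 (0.57), 2 (0.51) or 3 (0.58) or inflammation 3 (0.45) or 4 (0.44), against homeostasis 3 and 4 alone (0.45, adjusted p = 0.165) and in limma-voom (0.53, adjusted p = 0.0561).

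Ripk3, the kinase of necroptosis, was at 263, 256, 321 and 368 CPM in the homeostasis libraries, at 308, 299, 288 and 258 in those of inflammation and at 221, 235, 176 and 178 in those of resolution. All resolution libraries lay below all others, while homeostasis and inflammation overlapped. Its fold change was -0.58 ± 0.14 against homeostasis and -0.51 ± 0.14 against inflammation (edgeR adjusted p = 0.00208 and 0.0197). The call against inflammation was lost without inflammation 1 (-0.49) or 2 (-0.51) or resolution 3 (-0.46) or 4 (-0.47). Ripk2, which serves the NOD receptors, and Ikbkg, the regulatory subunit of IKK, were modestly higher in resolution than in homeostasis, by 0.40 ± 0.12 and 0.45 ± 0.12 (edgeR adjusted p = 0.00758 and 0.00468). Against homeostasis 3 and 4 alone the Ripk2 value was 0.31 (adjusted p = 0.0556). The beta catalytic subunit of IKK, Ikbkb, averaged 81.7 ± 7.43, 66.9 ± 6.66 and 71.4 ± 3.35 CPM in homeostasis, inflammation and resolution and passed in none of the comparisons, although it was lower in inflammation than in homeostasis without inflammation 4 (-0.34, edgeR adjusted p = 0.0417). With all 12 libraries Ripk1, Map3k14, Tbk1 and Ikbke did not pass either, and their fold changes lay between -0.38 (Ripk1 in inflammation against homeostasis) and 0.48 (Ripk1 in resolution against inflammation). Several of these depended on the controls. Ripk1 was lower in inflammation against homeostasis 1 and 2 alone (-0.75, edgeR adjusted p = 0.00445) and higher in resolution against homeostasis 3 and 4 alone (0.61, adjusted p = 0.0155). Against homeostasis 1 and 2 alone Ikbke was higher in inflammation (0.43, edgeR adjusted p = 0.0366) and in resolution (0.58, adjusted p = 0.00457), and against homeostasis 3 and 4 alone Tbk1 was higher in resolution (0.42, adjusted p = 0.0350). Without resolution 2, Map3k14 was lower (-0.49, edgeR adjusted p = 0.0326) and Tbk1 higher (0.41, adjusted p = 0.0428) in resolution than in inflammation.

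Of the 5 NF-kB subunits, 0 were higher and 4 were lower in inflammation, and 0 were higher and 4 were lower in resolution, in each case against homeostasis in edgeR. In resolution 1 subunit, Rel, was higher at an unadjusted p below 0.05 and in DESeq2, and 0 were higher in limma-voom. In inflammation 0 were higher by any of these measures. Of all genes, 19.0% were higher and 18.3% lower in inflammation, and 27.5% and 25.8% in resolution. Nfkb1, a subunit made as a precursor that can itself hold dimers in the cytoplasm, was at 264, 264, 284 and 255 CPM in the homeostasis libraries, at 145, 151, 161 and 195 in those of inflammation and at 149, 174, 179 and 180.2 in those of resolution. The homeostasis libraries were alike and lay above every doxycycline library. Its level fell from 267 ± 12.4 to 163 ± 22.2 and 171 ± 14.8 CPM (SD, n = 4), with fold changes of -0.71 ± 0.12 and -0.64 ± 0.12 (edgeR adjusted p = 0.000176 and 0.000224). Nfkb2, the precursor subunit of the alternative pathway, was at 186, 169.6, 293 and 315 CPM in the homeostasis libraries, at 123, 119, 136 and 124 in those of inflammation and at 93.2, 138, 102 and 89.6 in those of resolution. No doxycycline library reached homeostasis, although homeostasis 3 and 4 stood far above 1 and 2. It fell by 0.94 and 1.18 on the log2 scale (edgeR adjusted p = 0.000499 and 2.57e-05).

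Rela and Relb encode subunits that activate transcription directly. Rela was at 136, 172, 183 and 212 CPM in the homeostasis libraries, at 129.5, 130.4, 119 and 111 in those of inflammation and at 107, 146, 96.9 and 107 in those of resolution, and only resolution 2 reached into the control range. Its fold changes were -0.52 ± 0.15 and -0.62 ± 0.15 against homeostasis (edgeR adjusted p = 0.0102 and 0.00179), and against homeostasis 1 and 2 alone the inflammation value was -0.33 (adjusted p = 0.132). Relb was at 57.7, 42.0, 87.8 and 103 CPM in the homeostasis libraries, at 45.1, 43.8, 40.1 and 42.4 in those of inflammation and at 43.9, 52.8, 37.2 and 41.5 in those of resolution. Its doxycycline libraries lay around homeostasis 2 and below homeostasis 1, 3 and 4. The fold changes of -0.76 ± 0.21 and -0.73 ± 0.21 (edgeR adjusted p = 0.00663 and 0.00563) became -0.21 and -0.19 against homeostasis 1 and 2 alone and did not pass (adjusted p = 0.352 and 0.370). Rel, the subunit most abundant in lymphoid cells, was at 2.94, 2.03, 2.85 and 2.08 CPM in the homeostasis libraries, at 1.37, 3.03, 3.97 and 1.46 in those of inflammation and at 4.59, 2.15, 5.36 and 4.67 in those of resolution. It did not pass in any comparison (-0.00 ± 0.33, 0.77 ± 0.32 and 0.77 ± 0.32, edgeR adjusted p = 0.994, 0.0526 and 0.109). Resolution 2 was the lowest resolution library of Rel, and without it the resolution values were 0.98 against homeostasis (adjusted p = 0.0113) and 0.99 against inflammation (adjusted p = 0.0235). Against homeostasis it also passed without homeostasis 1 (0.87, adjusted p = 0.0485) or without inflammation 1, 3 or 4 (0.76 to 0.77), and against inflammation without inflammation 3 (1.09, adjusted p = 0.0397).

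**Figure D3:**
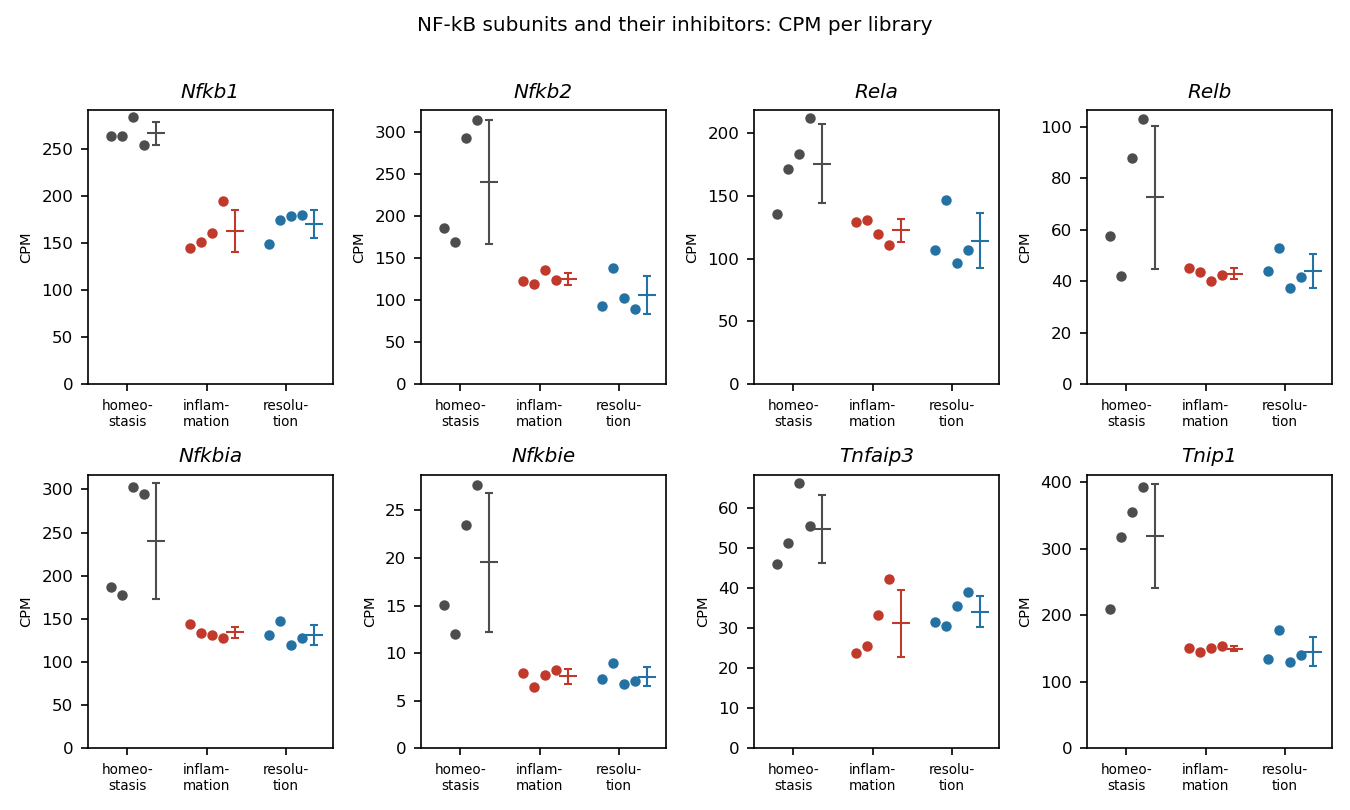
CPM (vertical axis, from 0) of 4 NF-kB subunits (upper row) and 4 inhibitors (lower row) in each library, with points for libraries 1 to 4 of a group from left to right and a bar for mean ± SD. For Nfkb1, Nfkb2, Nfkbia, Nfkbie, Tnfaip3 and Tnip1 every homeostasis library lies above every doxycycline library, and for Nfkb2, Relb, Nfkbia and Nfkbie homeostasis 3 and 4 lie far above 1 and 2.

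The 11 IkB proteins and feedback inhibitors moved in opposite directions: 2 were higher and 5 lower in inflammation than in homeostasis, 3 were higher and 6 lower in resolution than in homeostasis, and 3 were higher and 0 lower in resolution than in inflammation (edgeR; 0 lower in DESeq2 and limma-voom, and 1, Bcl3, at an unadjusted p below 0.05). The higher shares of 18.2% and 27.3% against homeostasis lay near the 19.0% and 27.5% of all genes. The lower shares were 45.5% and 54.5%, against 18.3% and 25.8%. Between resolution and inflammation 27.3% were higher, against 8.52% of all genes, and 7.64% of all genes were lower. Nfkbia, the IkB protein that NF-kB resupplies fastest, was at 187, 178, 303 and 294 CPM in the homeostasis libraries, at 144, 134, 132 and 128 in those of inflammation and at 131, 148, 119.5 and 128 in those of resolution. Every homeostasis library exceeded every doxycycline library. The change was -0.84 ± 0.16 in inflammation and -0.87 ± 0.16 in resolution (edgeR adjusted p = 0.000403 and 0.000147), and -0.03 ± 0.16 between them (adjusted p = 0.916). Nfkbie, a related IkB protein, was at 15.0, 12.0, 23.5 and 27.7 CPM in the homeostasis libraries, at 7.90, 6.43, 7.69 and 8.22 in those of inflammation and at 7.27, 8.97, 6.76 and 7.12 in those of resolution. Its groups separated in the same manner, with -1.37 ± 0.22 and -1.37 ± 0.22 against homeostasis (edgeR adjusted p = 7.12e-05 and 3.25e-05).

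Tnip1, which binds ubiquitin chains and partners Tnfaip3, was at 210.3, 319, 355 and 393 CPM in the homeostasis libraries, at 151, 145, 150.3 and 154 in those of inflammation and at 135, 177, 131 and 139.8 in those of resolution. The inflammation libraries were nearly identical and none reached homeostasis. Tnip1 fell by 1.09 and 1.13 on the log2 scale (edgeR adjusted p = 2.99e-05 and 8.9e-06). Tnfaip3, the ubiquitin-editing enzyme that ends TNF signalling, was at 46.1, 51.4, 66.3 and 55.6 CPM in the homeostasis libraries, at 23.8, 25.5, 33.4 and 42.2 in those of inflammation and at 31.5, 30.5, 35.5 and 39.1 in those of resolution, again without overlap with the controls. Its fold changes were -0.81 ± 0.17 and -0.68 ± 0.17 (edgeR adjusted p = 0.00117 and 0.00268). Nfkbia, Nfkbie, Tnip1 and Tnfaip3 passed in both comparisons against homeostasis under every alternative setting that was run. Bcl3, a nuclear IkB protein, was lower by -0.49 ± 0.16 and -0.90 ± 0.16 (edgeR adjusted p = 0.0216 and 0.000115); the inflammation call was lost against homeostasis 1 and 2 alone (-0.41, adjusted p = 0.0973) and without homeostasis 2 or 4 or inflammation 1, 2 or 4 (-0.47 to -0.41).

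The sequences just upstream of these 4 inhibitors are shown because the genes moved together and because the kappa B consensus, the DNA element that NF-kB dimers bind, was found in all of them. Each is the 130 bases before the transcription start given by RefSeq for GRCm38.p6, written 5′ to 3′ on the strand of the gene, with every match to the consensus in capitals. Cflar, an inhibitor that rose, is added as a gene without a match in its window. Among the other inhibitors that rose, Cyld (in all 3 comparisons) and Tnip3 (in resolution) each held 1 match in the 300-base window described below, beginning 155 and 54 bases before the start.
Nfkbia: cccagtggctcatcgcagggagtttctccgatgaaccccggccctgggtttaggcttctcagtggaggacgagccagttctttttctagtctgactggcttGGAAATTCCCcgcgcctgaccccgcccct
Nfkbie: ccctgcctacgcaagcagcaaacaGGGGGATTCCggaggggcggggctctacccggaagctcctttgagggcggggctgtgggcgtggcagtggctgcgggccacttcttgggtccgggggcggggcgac
Tnfaip3: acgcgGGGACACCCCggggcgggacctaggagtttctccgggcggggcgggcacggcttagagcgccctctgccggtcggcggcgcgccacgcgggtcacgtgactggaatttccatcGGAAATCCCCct
Tnip1: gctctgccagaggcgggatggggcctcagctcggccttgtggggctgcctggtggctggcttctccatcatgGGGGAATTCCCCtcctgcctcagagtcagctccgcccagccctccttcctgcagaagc
Cflar: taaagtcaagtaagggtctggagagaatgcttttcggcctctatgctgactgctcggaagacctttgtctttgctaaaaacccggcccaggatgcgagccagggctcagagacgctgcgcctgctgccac
These stretches lie at chr12:55492648-55492777 on the minus strand (Nfkbia), chr17:45555570-45555699 on the plus strand (Nfkbie), chr10:19015411-19015540 on the minus strand (Tnfaip3), chr11:54962941-54963070 on the minus strand (Tnip1) and chr1:58711361-58711490 on the plus strand (Cflar), and none overlaps an annotated exon, although that of Tnfaip3 lies within the span GENCODE gives the gene. Nfkbia held 1 match, GGAAATTCCC, which begins 29 bases before the start. In Tnip1 the capitals cover 3 overlapping matches, of which the middle is the palindrome GGGAATTCCC. For Tnfaip3 the upstream of the start with matches is shown, and a further start of the gene had none in its 130 bases.

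Both strands of 300-base windows (250 before and 50 after the start) were searched for the 10-letter consensus over the whole RefSeq table, where 36 of the 43 genes had a window. A match was present for 13 of these 36 (36.1%), against 2581 of 27025 genes in the table (9.55%). By role, it was present for 7 of 10 inhibitors, 2 of 3 subunits, 2 of 5 effectors, 1 of 10 of the ligand, receptors and adaptors (Traf3) and 1 of 8 kinases (Map3k7). Of the genes lower in inflammation than in homeostasis, 9 of 15 held a match, of those higher 2 of 7, and of those that did not pass 2 of 14. For resolution against homeostasis these shares were 8 of 15, 3 of 10 and 2 of 11. Tnf and Traf1 had no match in this window, which says nothing of sites elsewhere. A match is a description of letters and not of binding, which was not measured. The 43 genes were listed by known roles that include targets of NF-kB, so that choice itself favours a share above that of all genes. Of the 13 genes with a match 7 were inhibitors, so role and direction cannot be told apart in the shares by call. Those shares were not computed for called genes outside the list.

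Cyld, Cflar and Tnip3 were the 3 inhibitors that rose. Cyld, a deubiquitinase that strips the chains on which IKK activation depends, was at 33.8, 26.4, 28.7 and 28.5 CPM in the homeostasis libraries, at 47.0, 41.9, 53.4 and 43.5 in those of inflammation and at 77.7, 56.4, 94.2 and 89.8 in those of resolution. Its 3 groups did not overlap. It rose by 0.66 ± 0.16 in inflammation and 1.44 ± 0.16 in resolution, and by 0.78 ± 0.16 between them (edgeR adjusted p = 0.00250, 4.2e-07 and 0.00190). Cflar, the inhibitor of caspase activation at death receptors, was at 19.9, 11.7, 17.6 and 12.6 CPM in the homeostasis libraries, at 22.8, 29.0, 31.5 and 34.6 in those of inflammation and at 59.1, 28.9, 68.4 and 70.9 in those of resolution. Every doxycycline library exceeded every control, and resolution 2 lay within the inflammation range while the other resolution libraries lay far above it. Its fold changes were 0.94 ± 0.23, 1.88 ± 0.24 and 0.95 ± 0.23 in the same order (edgeR adjusted p = 0.00396, 2.36e-06 and 0.00892).

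Tnip3, a relative of Tnip1, was at 0.965, 2.06, 3.02 and 3.49 CPM in the homeostasis libraries, at 2.15, 1.43, 2.69 and 1.94 in those of inflammation and at 5.98, 3.64, 6.08 and 6.33 in those of resolution. The resolution libraries exceeded all others, and homeostasis and inflammation overlapped. It was 1.21 ± 0.30 against homeostasis and 1.43 ± 0.31 against inflammation (edgeR adjusted p = 0.00232 and 0.00338), and -0.22 ± 0.32 in inflammation against homeostasis (adjusted p = 0.625). Nfkbib was lower in resolution than in homeostasis (-0.43 ± 0.16, edgeR adjusted p = 0.0298), a call lost without homeostasis 3 (-0.42) or 4 (-0.32) or resolution 1 (-0.43), 3 (-0.33) or 4 (-0.41), and against homeostasis 1 and 2 alone (-0.24, adjusted p = 0.294). In inflammation it was lower against homeostasis 3 and 4 alone (-0.51, edgeR adjusted p = 0.0293). Nfkbiz, a nuclear IkB protein that NF-kB induces, and Tnip2 passed in none of the comparisons with all 12 libraries. Tnip2 was lower in resolution than in homeostasis without resolution 2 (-0.36, edgeR adjusted p = 0.0474). Nfkbiz averaged 119.7 ± 6.51, 142 ± 25.3 and 129.7 ± 25.5 CPM and Tnip2 13.8 ± 1.66, 11.2 ± 0.282 and 12.2 ± 2.90 in homeostasis, inflammation and resolution.

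The 5 effector genes did not move as a unit: 1 was higher and 3 were lower in each comparison against homeostasis, and 0 were higher and 2 lower in resolution than in inflammation (edgeR; 0 higher in DESeq2, in limma-voom and at an unadjusted p below 0.05). Of all genes, 19.0% were higher and 18.3% lower in inflammation against homeostasis, 27.5% and 25.8% in resolution against homeostasis, and 8.52% and 7.64% between resolution and inflammation. Saa3, an acute-phase serum amyloid that synoviocytes secrete, was at 1097, 1363, 3116 and 2959 CPM in the homeostasis libraries, at 5562, 5253, 6586 and 6221 in those of inflammation and at 4417, 4855, 4919.8 and 4871 in those of resolution. The doxycycline libraries all exceeded the controls, and all resolution libraries lay below all inflammation libraries. Its rise was 1.47 ± 0.24 in inflammation and 1.16 ± 0.24 in resolution (edgeR adjusted p = 0.000111 and 0.000500), and the difference between them was -0.31 ± 0.24 (adjusted p = 0.376). Macrophages also express Saa3. Summed macrophage markers lay at 132 to 173 CPM in homeostasis, 744 to 823 in inflammation and 71.4 to 81.1 in resolution. Their part in the values of Saa3 was not tested.

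Ptx3, a secreted pentraxin that TNF induces in fibroblasts, went the other way and was at 2115, 1958, 2700.3 and 2529 CPM in the homeostasis libraries, at 1369, 1307, 1316 and 1257 in those of inflammation and at 899, 999, 908 and 821 in those of resolution. Its 3 groups were tight and did not overlap. The fold changes were -0.83 ± 0.13, -1.36 ± 0.13 and -0.53 ± 0.12 for inflammation and resolution against homeostasis and resolution against inflammation (edgeR adjusted p = 4.15e-05, 4.71e-08 and 0.00664). Tnfaip6, a hyaluronan-binding protein that TNF induces, was at 9.95, 7.42, 8.72 and 7.48 CPM in the homeostasis libraries, at 3.34, 3.07, 4.11 and 5.92 in those of inflammation and at 2.63, 1.17, 1.86 and 1.39 in those of resolution. It descended in the same order without overlap, by -1.03 ± 0.24, -2.25 ± 0.26 and -1.23 ± 0.26 (edgeR adjusted p = 0.00234, 7.47e-07 and 0.00331). Both genes passed in all 3 comparisons under every alternative setting that was run.

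Lcn2, an iron-binding acute-phase protein, showed how far the control pairs matter. It was at 209, 197, 454 and 488 CPM in the homeostasis libraries, at 323, 299.5, 346 and 391 in those of inflammation and at 361, 372, 338 and 363 in those of resolution. All doxycycline libraries lay above homeostasis 1 and 2 and below homeostasis 3 and 4, and the fold changes against all 4 were 0.01 ± 0.22 and 0.09 ± 0.22 (edgeR adjusted p = 0.973 and 0.763). Against homeostasis 1 and 2 alone they were 0.75 and 0.81 (adjusted p = 0.000517 and 0.000151), and against homeostasis 3 and 4 they were -0.45 and -0.39 (adjusted p = 0.0144 and 0.0196). Tnfaip2 was at 328, 327, 454 and 506 CPM in the homeostasis libraries, at 312, 286, 309 and 285 in those of inflammation and at 295, 368, 289 and 299 in those of resolution, and was lower by -0.44 ± 0.15 and -0.37 ± 0.15 (edgeR adjusted p = 0.0235 and 0.0385). It did not pass against homeostasis 1 and 2 alone (-0.13 and -0.08), nor without homeostasis 3 (-0.38 and -0.31) or 4 (-0.30 and -0.24) in either comparison. The inflammation call was also lost without inflammation 2 or 4 (-0.40 each), and the resolution call without inflammation 2 (-0.36) or resolution 1 (-0.33), 3 (-0.32) or 4 (-0.34).

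**Figure D4:**
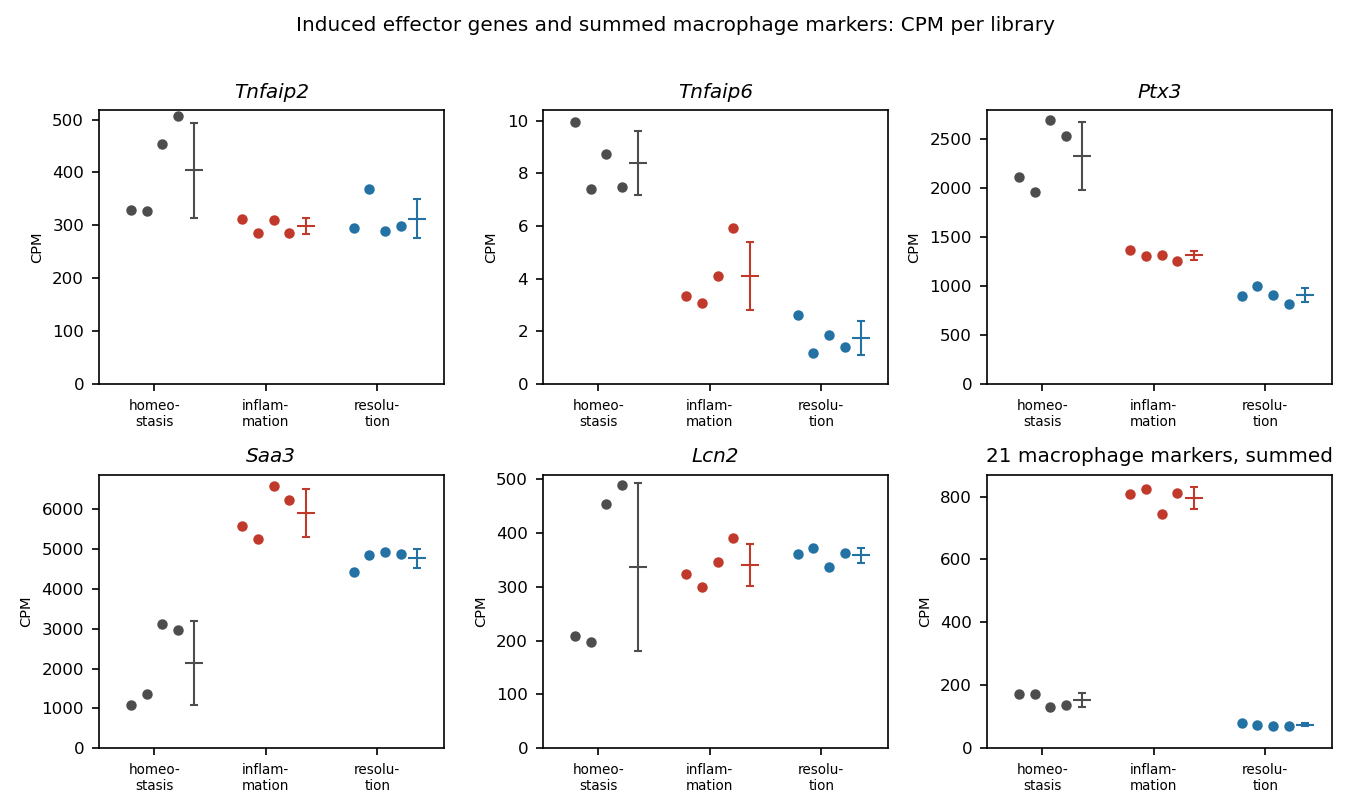
CPM (vertical axis, from 0) of the 5 effector genes and the sum of 21 macrophage markers in each library, with points for libraries 1 to 4 of a group from left to right and a bar for mean ± SD. Saa3 is high in both doxycycline groups, the macrophage sum only in inflammation (744 to 823 CPM), and the homeostasis points of Saa3, Lcn2 and Tnfaip2 lie in pairs.

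Counts of calls between resolution and inflammation depended on the pairing of libraries and on resolution 2. Same-numbered libraries of these groups deviated together (r from 0.190 to 0.330), although differently numbered ones reached an r of 0.323, and no label gives a pairing. In a fit of these 8 libraries blocked by replicate number 10 genes were higher and 9 lower in edgeR, in place of 5 and 5. Calls over all genes rose as well, to 17.5% higher and 15.1% lower from 8.52% and 7.64%. Those 19 included all 10 named above, and added Traf3, Birc2, Birc3, Ripk1 and Tbk1 as higher and Tnfrsf1a, Tradd, Bcl3 and Saa3 as lower. The blocked values of the added genes ran from -0.45 (Bcl3, adjusted p = 0.0134) to 0.52 (Birc3, adjusted p = 0.00445), and that of Saa3 was -0.32 (adjusted p = 0.0238). The block over all 12 libraries gave 3 higher and 5 lower, without Chuk and Map3k7. Leaving out resolution 2 gave 9 higher and 8 lower, beside 15.4% and 11.9% of all genes. Leaving out inflammation 1, resolution 3 or resolution 4 gave 6, 5 and 6 genes in all, where 3.94%, 3.42% and 3.15% of all genes were higher and 5.49%, 5.10% and 4.97% lower. Leaving out inflammation 2 or resolution 1 gave 3 higher genes, beside 3.70% and 4.79% of all genes.

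The GC content of the transcripts moved with the direction of change. Among the 43 genes, those higher in resolution than in homeostasis had a median of 44.6% GC and those lower 54.2%, and in inflammation the medians were 44.8% and 52.9%. An additional fit therefore carried an offset per gene and library for GC content and length, which covered 90.6% of tested genes and all 43 genes. In resolution against homeostasis it moved the median of the 43 genes from -0.19 to 0.01, and that of all genes from -0.01 to 0.06. With the offsets 29.7% of all genes were higher and 24.3% lower. The fit ended the calls of Traf5 (0.17), Ikbkg (0.04), Tnip3 (0.36), Relb (-0.33), Nfkbib (-0.10) and Tnfaip2 (0.01), with edgeR adjusted p from 0.0606 to 0.914. In inflammation against homeostasis it ended that of Traf2 (-0.28, adjusted p = 0.152). The offsets also added calls: in inflammation against homeostasis Tnfrsf1a (0.26), Ripk2 (0.28) and Nfkbiz (0.44) were then higher and Ripk1 (-0.47) and Nfkbib (-0.25) lower, with edgeR adjusted p from 0.0103 to 0.0390. Nfkbiz was then higher in resolution than in homeostasis (0.32, adjusted p = 0.0471), and Traf3 (0.40, adjusted p = 0.0366) and Tnfaip2 (0.32, adjusted p = 0.0137) were higher in resolution than in inflammation. Between resolution and inflammation it ended those of Chuk (0.23, adjusted p = 0.311) and Map3k7 (0.36, adjusted p = 0.0757), and with the block added that of Map3k7 passed while Chuk did not (0.23, adjusted p = 0.0665). With these offsets 9 of the 12 higher and 14 of the 17 lower genes still passed in resolution against homeostasis. Those upward were Tnfrsf1b, Birc2, Ripk2, Chuk, Map3k7, Map3k8, Cyld, Cflar and Saa3. Those downward were Tnf, Traf1, Traf2, Ripk3, Nfkb1, Nfkb2, Rela, Nfkbia, Nfkbie, Bcl3, Tnfaip3, Tnip1, Tnfaip6 and Ptx3.

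**Figure D5:**
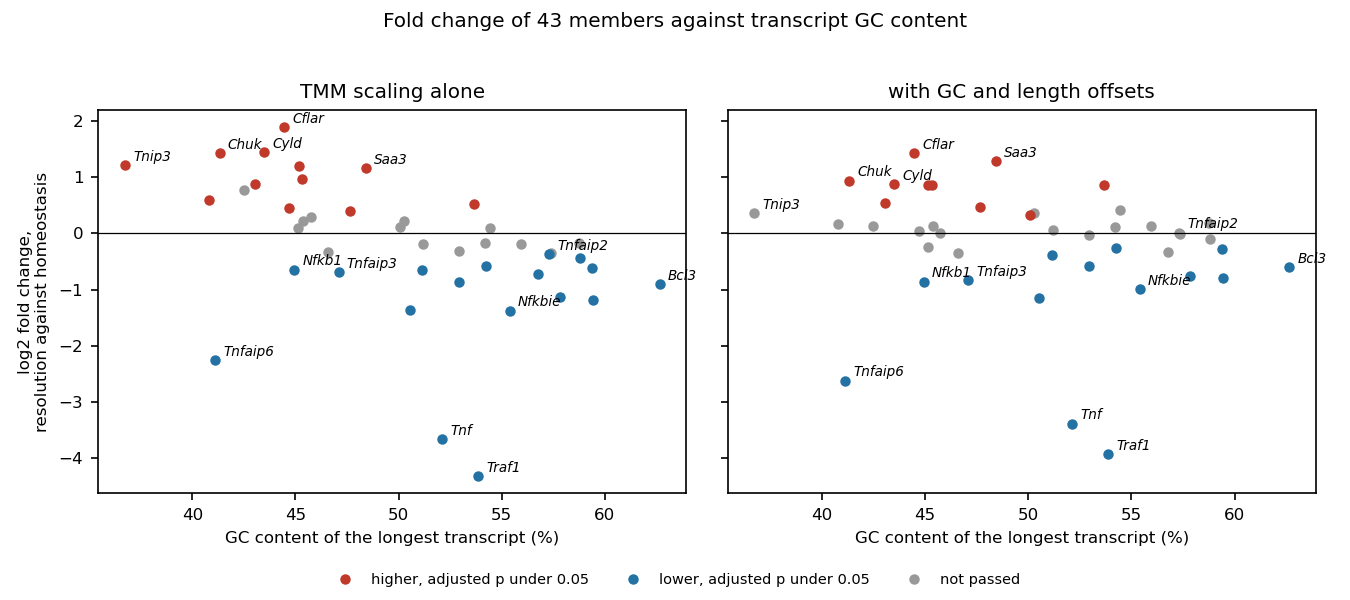
Log2 fold change in resolution against homeostasis (vertical axis) against GC content of the longest transcript in percent (horizontal axis) for the 43 genes, with TMM scaling alone (left) and with GC and length offsets (right). The red points sit at a median of 44.6% GC and the blue points at 54.2% on the left, and on the right Tnip3 and Tnfaip2 have turned grey.

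Levels between genes were compared as CPM per kilobase of exons merged over all annotated transcripts of a gene. Which transcripts the cells made was not measured, so the order of genes depends on this length. In homeostasis the highest among the 43 were Ptx3 at 867 and Saa3 at 819 CPM per kilobase, and in inflammation Saa3 at 2266 stood above Ptx3 at 489. Among the subunits, Rela (57.2) and Nfkb2 (52.5) lay above Nfkb1 (22.1) and Relb (18.7) in homeostasis, and Rel was lowest at 0.332 CPM per kilobase. Nfkbia stood at 149 among the inhibitors, followed by Tnip1 at 90.2, and Tnip3 was lowest at 0.218. Tnfrsf1a exceeded Tnfrsf1b in every group, with 87.8 against 22.1 in homeostasis and 96.95 against 34.7 in inflammation. Chuk, at 5.19 CPM per kilobase in homeostasis, lay close to Ikbkb at 4.28 and Ikbkg at 4.94, whereas in resolution it was 14.0 against 3.74 and 6.77. The merged length was 19.1 kilobases for Ikbkb and 5.09 for Chuk, and without this division they averaged 71.4 and 71.1 CPM in resolution. For Nfkb1 and Nfkb2 the lengths were 12.1 and 4.58 kilobases.

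A wider list of 89 further genes of the pathway, covering other TNF-family ligands and receptors, signalling components, inhibitors and NF-kB targets, was read in the same fit, and 81 of them were tested. In inflammation against homeostasis 14 were higher, 17 lower and 50 did not pass, which is 17.3% and 20.99% of the tested genes of the list and near the 19.0% and 18.3% of all genes. Those with the smallest edgeR adjusted p were the chemokine gene Ccl20 (-3.08 ± 0.17, adjusted p = 8.97e-11), the prostaglandin synthase Ptgs2 (1.59 ± 0.19, 3.24e-06), the receptor Ngfr (-1.12 ± 0.16, 2.16e-05) and the ligand Tnfsf13b (1.38 ± 0.20, 2.28e-05). Ccl20 was at 139, 137, 182 and 155 CPM in the homeostasis libraries, at 18.3, 14.5, 15.3 and 24.3 in those of inflammation and at 33.1, 30.8, 29.6 and 34.0 in those of resolution, so that 2 NF-kB targets, Ccl20 and Ptgs2, moved in opposite directions. In resolution against homeostasis 24 were higher (29.6%) and 23 lower (28.4%), near the 27.5% and 25.8% of all genes, and 34 did not pass. The smallest adjusted p were those of Ccl20 (-2.27 ± 0.16, edgeR adjusted p = 1.02e-09), the inhibitor Tax1bp1, a partner of Tnfaip3 (1.505 ± 0.14, 2.94e-08), the receptor Eda2r (1.93 ± 0.20, 2.61e-07) and Tnfsf13b (1.75 ± 0.20, 6.23e-07). Between resolution and inflammation 10 were higher (12.3%), 5 lower (6.17%) and 66 did not pass, beside 8.52% and 7.64% of all genes. The plasminogen activator gene Plau (-1.01 ± 0.13) and the granulocyte growth factor gene Csf3 (-3.01 ± 0.40) were lower (edgeR adjusted p = 2.27e-05 and 3.43e-05), while the death receptor Fas rose by 0.89 ± 0.12 and Ccl20 by 0.82 ± 0.16 (adjusted p = 4.24e-05 and 0.00135). Csf3 was at 2.49, 2.65, 8.21 and 8.25 CPM in the homeostasis libraries, at 8.50, 8.56, 18.2 and 12.9 in those of inflammation and at 0.876, 1.35, 2.18 and 1.53 in those of resolution, highest in inflammation in every library but with homeostasis 3 and 4 close behind.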

How the data were processed

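The authors deposited 1 table of expected counts per gene symbol, not normalized; 1.43% of its values, and 4 of the 528 used here, were not whole and were rounded. Reads were placed on GRCm38.p3, as the submitters' processing notes say (aligner, counter, annotation and strand setting: not given in the sources used here). From 36930 entries, 13 without a value were dropped and 42 repeated ones were summed. No library duplicated another (reduced chi-square 10.2 to 114 within groups).

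Genes were filtered with the default of edgeR 4.0.16 (15049 kept), scaled by TMM and tested with its two-sided quasi-likelihood F test in a model with group alone, over all 12 libraries. P-values were adjusted over all tested genes by the Benjamini-Hochberg method. Levels are TMM-scaled CPM. The alternatives were DESeq2 1.42.0, limma-voom 3.58.1, other scalings, no filter, left-out libraries, a replicate block and, chosen after seeing the data, offsets for GC content and length, the block on 8 libraries, and each Traf5 entry alone. Titles number the libraries. Same-numbered inflammation and resolution libraries had correlated deviations from their group means (r from 0.190 to 0.330 in 4 of 4 pairs). This is the only source of that pairing. Differently numbered libraries of these groups had r from -0.389 to 0.323, over 0.1 in 3 of 12 pairs. Correlations of this size thus also arose without a shared number. With homeostasis, r ran from -0.393 to 0.147 for the same number and from -0.510 to 0.505 for different numbers. The edgeR test was also run on simulated independent libraries with changes in the inflammation group alone. That setting is simpler than these data, so it is no check of the calls given here. Gene positions and lengths come from GENCODE M21 for GRCm38, and promoters from RefSeq.

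The 43 genes and all lists were chosen with earlier results of these data known. By rule, the text gives Tnf and the 5 subunits, up to 4 genes per role and comparison with the smallest adjusted p among those that passed, and up to 4 per comparison of the wider list; the remaining genes of the 43 are given to account for every member. Limits for a count of 0 are 3 counts of a library and cover counting error only.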

Additional observations from a re-analysis of the deposited data

Results flagged for a closer look

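In 5 of the 129 sets formed by a gene and a group, a library stood apart from the other 3 of its group by more than the 95% critical value of Dixon's test for 4 samples, a test that chance passes in about 1 set in 20. All 5 were in resolution, and 4 of them concerned resolution 2. That library was the highest for Ikbke, at 160.6 CPM against 118.6 to 125.1 in the others, for Tnip2, at 16.5 against 10.1 to 11.1, and for Tnfaip2, at 367.8 against 288.5 to 298.9. It was the lowest for Tnip3, at 3.64 CPM against 5.98 to 6.33. Resolution 1 was the lowest for Saa3, at 4417 CPM against 4855 to 4920 in the others.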

How the results depend on the processing

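The direction and call of 6 of the 8 genes higher and 9 of the 17 lower in inflammation against homeostasis held in every setting run, as did 7 of 12 and 13 of 17 in resolution against homeostasis and 3 of 5 and 2 of 5 in resolution against inflammation. In inflammation against homeostasis, 11 genes were lower with homeostasis libraries 1 and 2 as the sole controls, beside 17.2% of all genes. Leaving out each library in turn gave 21 to 25 genes there (6 to 8 higher, 14 to 17 lower), 27 to 33 in resolution against homeostasis (12 to 14 higher, 15 to 19 lower) and 5 to 17 in resolution against inflammation (3 to 9 higher, 2 to 8 lower). Over the same fits, 15.0% to 20.1% of all genes were higher and 13.6% to 19.5% lower in inflammation against homeostasis. In resolution against homeostasis these shares were 24.4% to 28.0% and 22.1% to 27.5%. For resolution against inflammation they were 3.15% to 15.4% and 4.97% to 11.9%. The last comparison moved most: limma-voom gave 6 genes (3 higher, 3 lower), no filter on low counts 8 higher, the replicate block over all 12 libraries 3 higher, the replicate block on the inflammation and resolution libraries 19 (10 higher, 9 lower), and that block with GC and length offsets 17 (10 higher). Of all genes, 7.99% were higher and 7.40% lower in limma-voom. Without the filter 6.02% were higher, and with the block over 12 libraries 6.30%. The block on 8 libraries called 17.5% higher and 15.1% lower, and with the offsets 14.1% higher. The replicate block over 12 libraries also ended the calls of Traf2 in inflammation (-0.46) and of Nfkbib (-0.44) and Tnfaip2 (-0.36) in resolution against homeostasis, and it ended Chuk (0.47) and Map3k7 (0.60) in resolution against inflammation. Same-numbered libraries did not deviate together where homeostasis was involved. Values that reversed were Lcn2 in inflammation (-0.45) and resolution (-0.39) against homeostasis libraries 3 and 4 alone, Tnfaip2 in resolution against homeostasis with GC and length offsets (0.012), and Tnip1 in resolution against inflammation with the block and these offsets (0.20, edgeR adjusted p = 0.0387), where Relb also passed (0.27). The causes were not tested. No scaling moved the median of all genes by more than 0.1, while dropping the filter, which admits 27140 genes, moved it by 0.18 in resolution against homeostasis. Depth limits Tnf and Traf1 most, with 26 and 16 counts over the resolution group.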
